A study of Mus musculus with 4 samples.

Results

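The proteasome is the protease complex that degrades most ubiquitin-tagged proteins in the cytosol and nucleus. Its genes were described in sorted mouse B lymphocytes over 4 arrays. The members were chosen by name: probe sets annotated with exactly 1 gene symbol that starts with Psma to Psmg and a number. The rule gave 52 probe sets for 49 genes, out of 22180 named genes on the array, and the probe set with the highest mean signal stood for its gene. The rule itself uses no measured difference, but it was chosen with earlier results of these data known. Of the 49 genes, 47 encode subunits, activators, an inhibitor or assembly factors, and the other two, Psmc3ip and Psme3ip1, match by name alone.

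The 4 groups were stimulated and non-stimulated B cells of Tilcara mice, and stimulated and non-stimulated B cells of wild-type mice, with 1 array each. Per the labels, Tilcara mice are a C57BL/6 line carrying a mutation of PKCbeta, the kinase that couples the B cell antigen receptor to NF-kB; the sources used here give neither the nature of the allele nor the number and age of the mice. Cells of both genotypes came from spleens, thymi and lymph nodes and were sorted on B220, a surface protein of B cells that plasmacytoid dendritic cells also carry. Stimulation lasted 4 hours with the phorbol ester PMA at 10 ng/mL and the calcium ionophore A23187 at 1 µM, drugs that act downstream of the receptor.

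As background, the 26S proteasome joins a 20S core, a barrel of alpha and beta rings with 3 kinds of catalytic beta subunit inside, to a 19S regulatory cap that binds, unfolds and deubiquitinates substrates. In lymphocytes and after interferon-gamma, the catalytic subunits encoded by Psmb5, Psmb6 and Psmb7 are replaced during assembly by Psmb8, Psmb9 and Psmb10, which gives the immunoproteasome and changes the peptides made for MHC class I. Dedicated chaperones assemble the core and the cap, and the PA28 and PA200 caps are alternatives to 19S.

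Signals are given as log2 RMA values, where a difference of 1 is 2-fold. A gene was used where its highest signal reached 3.83, the median signal of named probe sets, and 12456 genes were. With 1 array per group a difference between 2 arrays has no test. The words rose and fell are kept for a limma fit of stimulation and genotype over the 4 arrays, with Benjamini-Hochberg adjustment over all 12456 genes at a threshold of 0.05. Each state then has 2 arrays, 1 per genotype. A gene's own spread (1 residual degree of freedom) is how far its Tilcara response departed from its wild-type response. limma pools it with a spread estimated over all 12456 genes, which carries 3.464 degrees of freedom. SEs and p-values therefore rest mostly on that shared spread. The labels do not say whether the samples came from separate mice. Levels of different genes cannot be ranked, since probe sets differ in brightness.

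Sequence upstream of the inducible catalytic genes and of 2 genes that rose is shown first, because Psmb8 and Psmb10 fell with stimulation while Psmb5 and Psmd11 rose. Each run is the 250 bases before the start site, 5′ to 3′ on the gene's own strand, from RefSeq (GRCm38.p6), and capitals mark every motif match described further on.
Psmb8 (chr17:34197945-34198194, plus strand): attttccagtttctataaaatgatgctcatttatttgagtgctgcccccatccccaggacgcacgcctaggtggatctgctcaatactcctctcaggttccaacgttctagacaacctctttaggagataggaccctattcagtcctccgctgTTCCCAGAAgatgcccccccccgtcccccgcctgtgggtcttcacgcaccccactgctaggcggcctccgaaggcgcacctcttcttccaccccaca
Psmb9 (chr17:34187331-34187580, minus strand): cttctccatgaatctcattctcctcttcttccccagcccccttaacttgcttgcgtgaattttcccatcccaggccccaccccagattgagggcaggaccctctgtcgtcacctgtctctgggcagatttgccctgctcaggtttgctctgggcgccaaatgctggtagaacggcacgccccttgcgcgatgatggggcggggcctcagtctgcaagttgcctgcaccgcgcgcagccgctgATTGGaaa
Psmb10 (chr8:105938393-105938642, minus strand): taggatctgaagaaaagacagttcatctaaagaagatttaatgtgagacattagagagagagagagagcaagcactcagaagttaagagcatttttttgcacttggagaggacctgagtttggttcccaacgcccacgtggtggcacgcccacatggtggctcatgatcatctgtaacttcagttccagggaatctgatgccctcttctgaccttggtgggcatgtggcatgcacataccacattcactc
Psmb5 (chr14:54617996-54618245, minus strand): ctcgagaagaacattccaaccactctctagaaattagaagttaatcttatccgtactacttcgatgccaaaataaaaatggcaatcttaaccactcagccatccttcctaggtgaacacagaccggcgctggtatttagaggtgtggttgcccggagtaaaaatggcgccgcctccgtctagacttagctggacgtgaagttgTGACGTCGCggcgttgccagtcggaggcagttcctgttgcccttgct
Psmd11 (chr11:80428365-80428614, plus strand): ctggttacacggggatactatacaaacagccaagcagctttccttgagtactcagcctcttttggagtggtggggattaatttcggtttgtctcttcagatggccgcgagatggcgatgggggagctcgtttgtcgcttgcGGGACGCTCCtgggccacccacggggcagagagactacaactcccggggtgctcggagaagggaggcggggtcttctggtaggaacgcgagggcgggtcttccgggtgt

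Of the 49 genes, 48 passed the floor, and 46 of them lay above it in all 4 arrays. With stimulation, 34 of the 48 rose (limma), where 22.0% of all genes used did, and 2 fell, where 22.8% did. The other 12 were not called. The 34 include Psma5, which passed the floor only through the stimulated arrays and so had to differ to be used. The rises were moderate, with log2 changes between 0.54 and 1.76, while the genes that fell, Psmb8 and Psmb10 of the immunoproteasome, did so by 2.33 and 3.33. The median response of the 48 genes was 0.76 in Tilcara and 0.75 in wild type, beside medians of 0.04 and 0.03 over all genes used. In bulk samples, fewer cells of a type and less RNA per cell cannot be told apart, and normalization between arrays hides a change in total RNA. Cyclic loess between arrays lowered the number that rose to 26 and raised the number that fell to 4. The shares over all genes used were not counted under that setting.

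**Figure D1:**
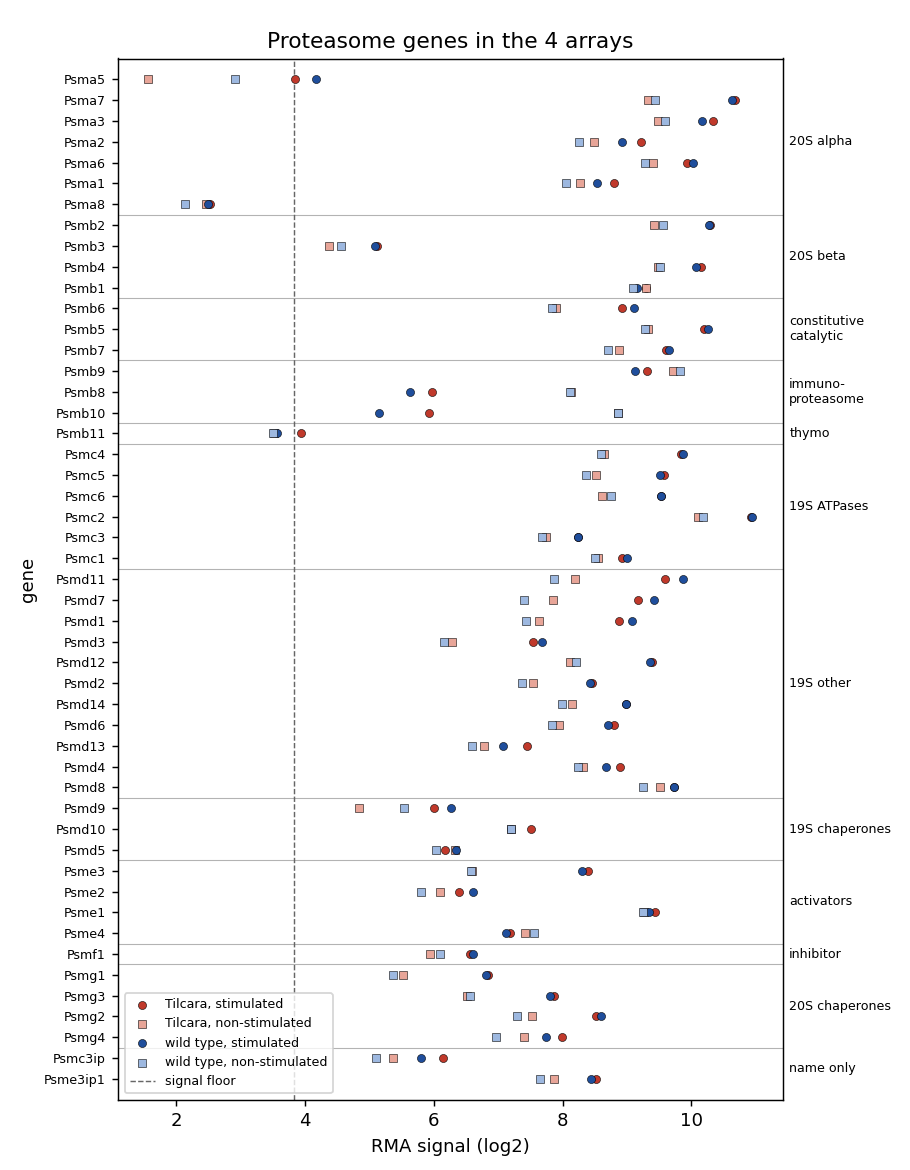
RMA signal (x axis, log2) of each of the 49 genes (rows, grouped by role) in the 4 arrays, 1 point per array, with the signal floor of 3.83 as a dashed line. Stimulated arrays (circles) lie right of the non-stimulated arrays (squares) for most genes, and left of them for Psmb8, Psmb9 and Psmb10.

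Of the 48 genes, 43 were higher after stimulation in both genotypes, 4 were lower in both, and 1, Psmd5, differed in direction. Over all genes used, 43.1% were higher in both, 39.0% lower in both, and 17.9% differed in direction. In Tilcara, 14 genes reached a 2-fold increase and 2 a 2-fold decrease, against 11.9% and 14.3% of all genes used. In wild type, 15 reached a 2-fold increase and 2 a 2-fold decrease, against 13.4% and 15.9%. The 43 and both counts of increases include Psma5, which passed the floor only through the stimulated arrays. With a floor on the mean over arrays, 13 genes reached a 2-fold increase in Tilcara and 14 in wild type. Genes are no independent replicates; across these 48, Pearson's r between the responses was 0.949 and Spearman's rho 0.900; the responses rest on separate arrays.

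**Figure D2:**
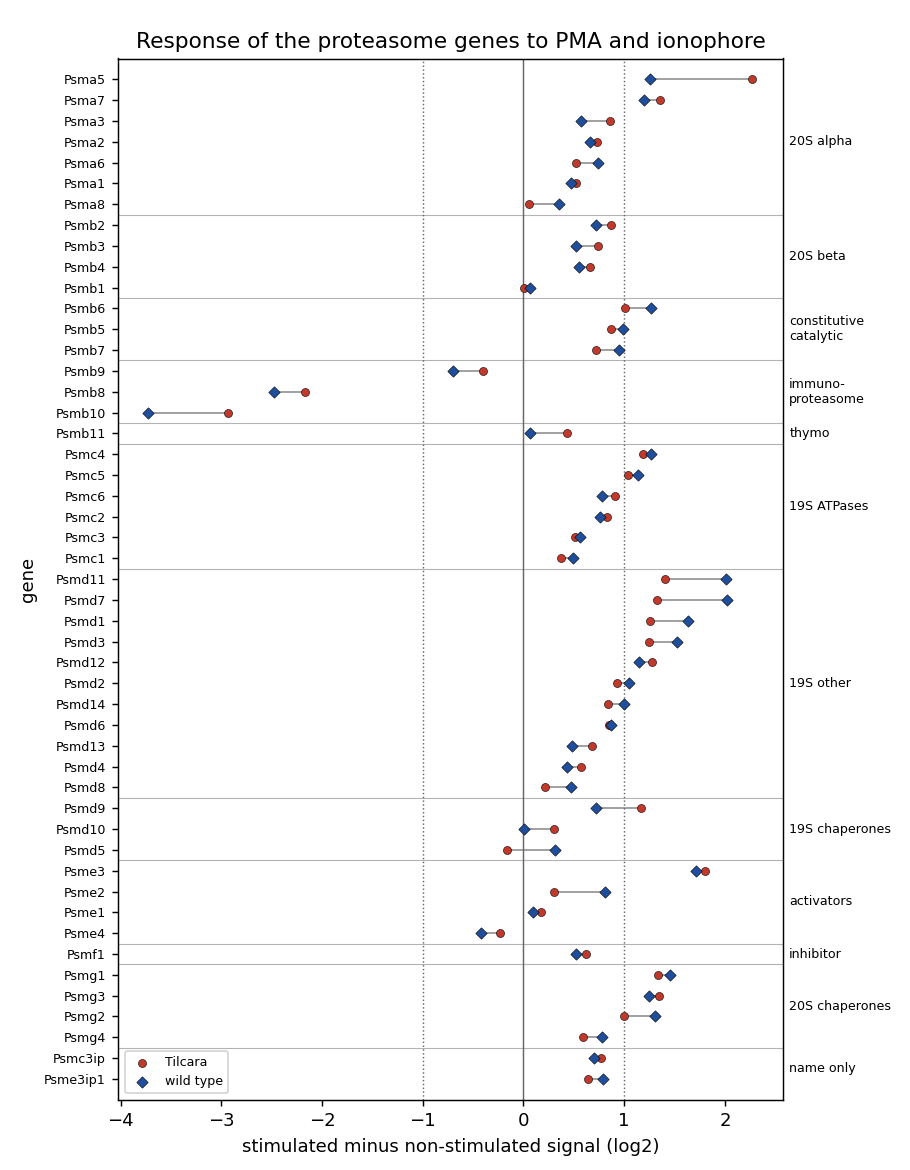
Stimulated minus non-stimulated signal (x axis, log2) of each of the 49 genes (rows) in Tilcara (circles) and in wild type (diamonds), joined by a line, with dotted lines at 2-fold. Most pairs lie between 0 and 2, and Psmb10 lies farthest left, at −2.94 in Tilcara and −3.72 in wild type.

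Of the 3 inducible catalytic genes, 2 fell, where 22.8% of all genes used did. The third was lower in both stimulated arrays without being called. Psmb10, which carries the trypsin-like site of the immunoproteasome, had signals of 5.93 in stimulated and 8.87 in non-stimulated Tilcara cells, and of 5.14 in stimulated and 8.87 in non-stimulated wild-type cells. Both stimulated arrays were far below both non-stimulated ones, and among them the wild-type array was the lower. Psmb10 fell 10.1-fold over both genotypes (limma log2 change −3.33, SE 0.24, adjusted p = 0.00162). Psmb8, the chymotrypsin-like subunit, had signals of 5.97 and 8.14 in stimulated and non-stimulated Tilcara cells, and of 5.63 and 8.11 in stimulated and non-stimulated wild-type cells. It fell 5.01-fold (limma log2 change −2.33, SE 0.16, adjusted p = 0.0016). Psmb9, which takes the place of the caspase-like subunit Psmb6, differed least, with 9.32 and 9.72 in stimulated and non-stimulated Tilcara cells and 9.13 and 9.83 in the wild-type pair. Its log2 change of −0.55 (SE 0.16) just missed the threshold (limma, adjusted p = 0.0508), and it passed under 6 of 7 alternatives, with adjusted p between 0.00721 and 0.0815.

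Their constitutive partners moved the other way. Psmb5, the chymotrypsin-like subunit of the standard core, had signals of 10.20 and 9.33 in stimulated and non-stimulated Tilcara cells, and of 10.26 and 9.28 in stimulated and non-stimulated wild-type cells. Psmb6, the caspase-like subunit, had 8.92 and 7.91 in the Tilcara pair and 9.11 and 7.84 in the wild-type pair. Psmb7, the trypsin-like subunit, had 9.60 and 8.88 in Tilcara and 9.65 and 8.71 in wild type, again with the stimulated value given before the non-stimulated one. For the 3 genes the stimulated array was the higher one in both genotypes, as it was for 43.1% of all genes used. All 3 rose, by 0.93, 1.14 and 0.83 on the log2 scale (limma, adjusted p = 0.00944, 0.00654 and 0.0143). Of all genes used, 22.0% rose.

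The difference between partners was therefore large. The response of Psmb8 minus that of Psmb5 was −3.04 in Tilcara and −3.47 in wild type. For Psmb10 minus Psmb7 it was −3.66 in Tilcara and −4.67 in wild type, and for Psmb9 minus Psmb6 it was −1.42 and −1.97. These are differences between changes on the log2 scale and say nothing of the amount of either protein. An exact two-sided permutation test of 2 stimulated against 2 non-stimulated arrays gives p = 0.333 for each pair, the smallest value that this number of arrays allows.

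**Figure D3:**
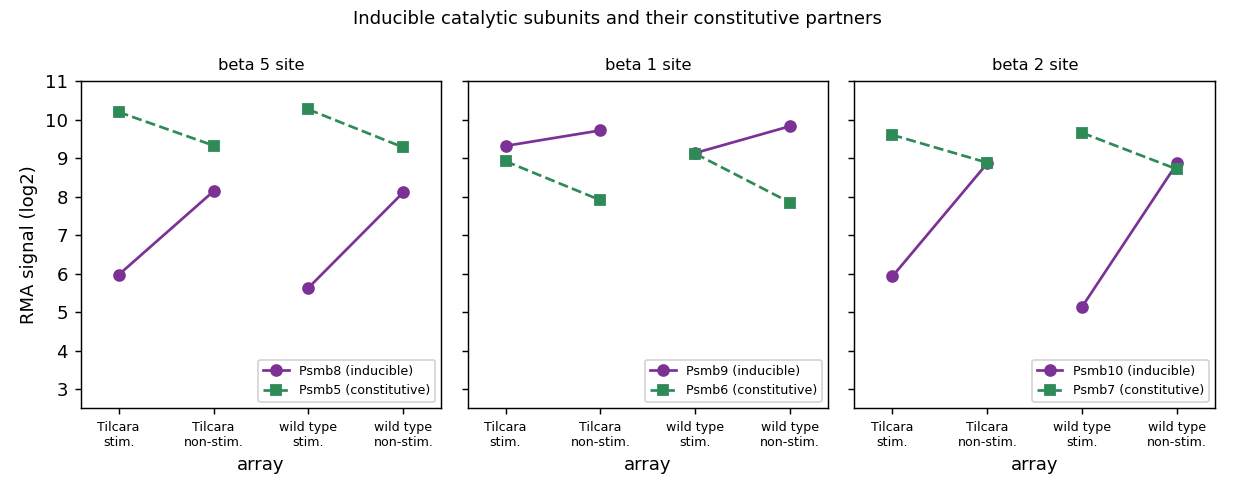
RMA signal (y axis, log2) of the inducible catalytic genes (solid lines, circles) and of their constitutive partners (dashed lines, squares) in the 4 arrays, 1 panel per catalytic site, with lines joining the arrays of one genotype. In each genotype the inducible gene is lower and the constitutive gene higher in the stimulated array; heights of different genes are not comparable.

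Psmb11, the beta subunit of the thymoproteasome of thymic epithelium, lay at 3.94 in stimulated Tilcara cells and between 3.50 and 3.56 in the other arrays. It passed the floor through that 1 array and was not called (limma, adjusted p = 0.296). Psma8, the alpha subunit of the testis proteasome, lay between 2.14 and 2.52 and was not used.

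Among the other core subunits, 5 of the 6 used alpha genes and 3 of the 4 structural beta genes rose, where 22.0% of all genes used did. The alpha count includes Psma5, which passed the floor only through the stimulated arrays. Psma7 rose most among the well-detected alpha genes, with 10.69 and 9.33 in stimulated and non-stimulated Tilcara cells and 10.63 and 9.43 in the wild-type pair (limma log2 change 1.28, SE 0.15, adjusted p = 0.00441). Psma2, Psma3 and Psma6 rose by 0.70, 0.71 and 0.63. Psma1 had 8.80 and 8.28 in the Tilcara pair and 8.53 and 8.06 in the wild-type pair, and its change of 0.50 was not called (limma, adjusted p = 0.0515). Psma2, Psma3 and Psma6 did not pass after cyclic loess (limma, adjusted p between 0.0506 and 0.0853), nor Psma6 without a filter on dim genes (adjusted p = 0.0503).

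Psma5 had the largest alpha change but the dimmest probe set. Its signals were 3.84 and 1.57 in stimulated and non-stimulated Tilcara cells and 4.16 and 2.91 in the wild-type pair, so it reached the floor only in the stimulated arrays and had to differ to be used. Its other probe set, at 3.04, 3.01, 2.69 and 2.61 in stimulated Tilcara, non-stimulated Tilcara, stimulated wild type and non-stimulated wild type, differed by 0.03 in Tilcara and 0.08 in wild type. When the mean over arrays had to reach the floor, which removes Psma5 and Psmb11, 35 of 46 genes rose. Psma4 was not a member, because both of its probe sets also carry the symbol AY074887; these differed by 1.04 and 1.07 in Tilcara and by 1.14 and 1.17 in wild type.

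Among the structural beta genes 1 was not called. Psmb1 had 9.30 in both Tilcara arrays, and 9.16 and 9.09 in stimulated and non-stimulated wild-type cells; its log2 change of 0.04 was not called (limma, SE 0.15, adjusted p = 0.866). Psmb2 had 10.30 and 9.42 in the Tilcara pair and 10.28 and 9.56 in the wild-type pair, and rose by 0.80. Psmb4 had 10.14 and 9.48 in stimulated and non-stimulated Tilcara cells and 10.07 and 9.52 in wild type, and rose by 0.61 (limma, adjusted p = 0.0304), which was lost after cyclic loess (adjusted p = 0.0941). Psmb3 had 5.12 and 4.38 in the Tilcara pair and 5.08 and 4.56 in the wild-type pair and rose by 0.63 (limma, adjusted p = 0.0313; 0.0506 without a filter on dim genes). Thus Psmb2, Psmb3 and Psmb4 were higher after stimulation in both genotypes, as were 43.1% of all genes used. Psmb1 differed by only 0.003 in Tilcara and 0.069 in wild type.

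Most of the 19S cap genes that the name rule caught rose. Of these 17 genes, 14 rose and none fell, where 22.0% and 22.8% of all genes used did, and 3 were not called. Median responses were 0.91 in Tilcara and 1.00 in wild type. The 13 core genes used other than the inducible and tissue-specific ones had medians of 0.74 in Tilcara and 0.72 in wild type. Of them 11 rose, the dim Psma5 included. These medians are descriptions, and the difference between core and cap was not tested. Sem1, a cap gene that the name rule leaves out, was counted among the partners described below. It had 10.47 and 10.35 in stimulated and non-stimulated Tilcara cells and 10.32 in both wild-type arrays. It was not called (limma, adjusted p = 0.78).

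Of the 6 ATPases that unfold substrates, 5 rose, where 22.0% of all genes used did. Psmc4 had 9.84 and 8.65 in stimulated and non-stimulated Tilcara cells and 9.87 and 8.60 in the wild-type pair (limma log2 change 1.23, SE 0.15, adjusted p = 0.00458). Psmc5 had 9.57 and 8.53 in the Tilcara pair and 9.51 and 8.37 in the wild-type pair, and rose by 1.09. For both genes the genotypes nearly coincided within a state. At the low end Psmc3, with 8.25 and 7.74 in Tilcara and 8.24 and 7.68 in wild type, rose by 0.54 (limma, adjusted p = 0.0419; 0.143 after cyclic loess and 0.0679 without a filter), and Psmc1, with 8.92 and 8.55 in Tilcara and 8.99 and 8.50 in wild type, was not called (limma log2 change 0.44, adjusted p = 0.0744). Psmc2 and Psmc6 rose by 0.80 and 0.84; a second, dimmer probe set of Psmc2 differed by 0.99 in Tilcara and 1.05 in wild type.

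Non-ATPase subunits included the largest increases among the member genes of the cap. Psmd11, a scaffold subunit of the lid, had 9.59 and 8.19 in stimulated and non-stimulated Tilcara cells, and 9.88 and 7.87 in stimulated and non-stimulated wild-type cells. The stimulated arrays were well above the others, and the wild-type pair lay farther apart. Psmd11 rose 3.26-fold (limma log2 change 1.71, SE 0.20, adjusted p = 0.00455). Psmd7, which pairs with the deubiquitinase subunit Psmd14, had 9.18 and 7.85 in the Tilcara pair and 9.41 and 7.40 in the wild-type pair, and rose 3.18-fold. Psmd1 and Psmd3 rose by 1.44 and 1.38, and Psmd12 by 1.21. Psmd2, a docking site for ubiquitin shuttles, Psmd14 and Psmd6 rose by 0.99, 0.92 and 0.86. Psmd13 rose least, by 0.58 (limma, adjusted p = 0.0383), and did not pass after cyclic loess (adjusted p = 0.088) or without a filter (adjusted p = 0.0619). The ubiquitin receptor gene Psmd4, with 8.89 and 8.32 in Tilcara and 8.68 and 8.25 in wild type, was just not called (limma log2 change 0.50, adjusted p = 0.0525). Psmd8 had 9.74 and 9.52 in the Tilcara pair and 9.73 and 9.26 in the wild-type pair and was not called (adjusted p = 0.147).

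**Figure D4:**
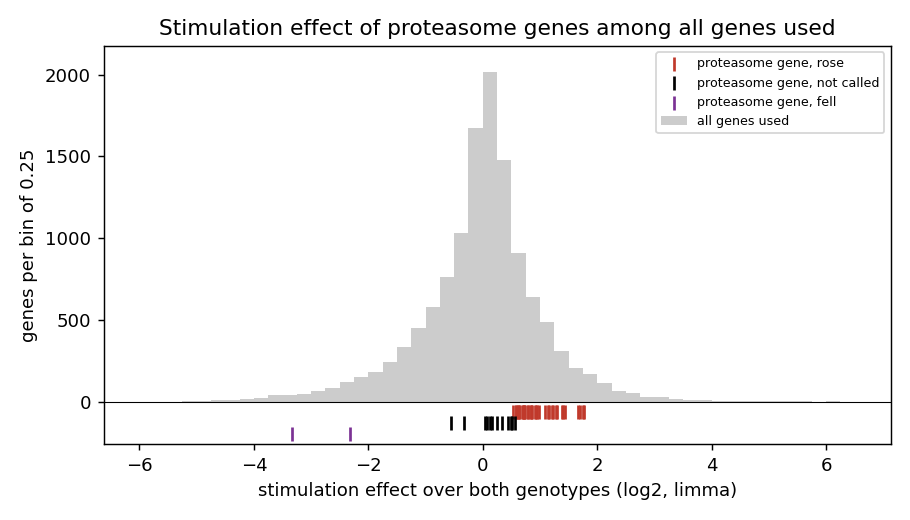
Number of genes (y axis, per bin of 0.25) by their stimulation effect over both genotypes (x axis, log2, limma) for all 12456 genes used, with the 48 proteasome genes as ticks below 0: 34 that rose, 12 not called and 2 that fell. The ticks of genes that rose start at 0.54, and the 2 that fell lie at −2.33 and −3.33.

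All 4 chaperone genes of core assembly rose, where 22.0% of all genes used did. Psmg1 and Psmg2 encode one heterodimer that builds the alpha ring. Psmg1 had 6.85 and 5.52 in stimulated and non-stimulated Tilcara cells and 6.82 and 5.36 in the wild-type pair (limma log2 change 1.39, SE 0.15, adjusted p = 0.0035). Psmg2 had 8.52 and 7.52 in Tilcara and 8.61 and 7.30 in wild type and rose by 1.15; its second probe set differed by 1.62 in Tilcara and 1.47 in wild type. Psmg3 and Psmg4 encode the other heterodimer. Psmg3 had 7.86 and 6.52 in the Tilcara pair and 7.81 and 6.57 in the wild-type pair, and rose by 1.29. Psmg4 had 7.996 and 7.40 in Tilcara and 7.74 and 6.96 in wild type, and rose by 0.69 (limma, adjusted p = 0.0232; 0.0538 after cyclic loess). In each of the 4 genes the stimulated array was the higher one in both genotypes, as in 43.1% of all genes used.

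Chaperones of the 19S base gave a mixed picture. Psmd9 had 6.00 and 4.84 in stimulated and non-stimulated Tilcara cells and 6.26 and 5.54 in the wild-type pair, and rose by 0.94 (limma, SE 0.18, adjusted p = 0.0153). Psmd10, which encodes gankyrin, had 7.51 and 7.20 in Tilcara and 7.21 and 7.20 in wild type and was not called (limma, adjusted p = 0.491). Psmd5 had 6.17 and 6.34 in the Tilcara pair and 6.35 and 6.03 in the wild-type pair and was not called either (adjusted p = 0.774). So 1 of the 3 rose, where 22.0% of all genes used did, and the arrays of Psmd5 overlapped between states.

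Of the genes for alternative caps, only Psme3 among 4 was called, where 22.0% of all genes used rose and 22.8% fell. Psme3, which encodes the nuclear PA28 gamma cap, had 8.40 and 6.59 in stimulated and non-stimulated Tilcara cells, and 8.30 and 6.58 in stimulated and non-stimulated wild-type cells. It rose 3.38-fold, almost alike in both genotypes (limma log2 change 1.76, SE 0.15, adjusted p = 0.00206). Psme1 and Psme2 encode the interferon-inducible PA28 alpha and beta. Psme1 had 9.44 and 9.27 in the Tilcara pair and 9.34 and 9.25 in the wild-type pair (limma log2 change 0.13, adjusted p = 0.511). Psme2 had 6.40 and 6.09 in Tilcara and 6.61 and 5.80 in wild type (limma log2 change 0.56, adjusted p = 0.0728). The response of Psme1 minus that of Psme3 was −1.63 in Tilcara and −1.62 in wild type, and that of Psme2 minus Psme3 was −1.498 in Tilcara and −0.899 in wild type, with no test beyond the permutation limit given above. Psme4, for PA200, had 7.19 and 7.42 in the Tilcara pair and 7.13 and 7.55 in the wild-type pair, lower in both stimulated arrays but not called (limma log2 change −0.33, adjusted p = 0.15); after cyclic loess it passed, at −0.52 (adjusted p = 0.0457). Psmf1, for the 20S inhibitor PI31, had 6.57 and 5.94 in Tilcara and 6.61 and 6.09 in wild type and rose by 0.57 (limma, adjusted p = 0.0359; 0.0578 after cyclic loess and 0.0582 without a filter).

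The genes that match by name alone, Psmc3ip, a meiotic recombination factor, and Psme3ip1, named as a PSME3-interacting protein, rose by 0.73 and 0.72. Without them 32 of 46 genes rose and 2 fell.

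Over both states limma called no proteasome gene for genotype, and none of the 12456 genes (0.0%); at an unadjusted p under 0.05 it had 2 of the 48 and 667 of all genes, and the lowest adjusted p among the 48 was 0.866. A missed threshold with 1 array per group does not show that the genotypes are alike. Without stimulation the median Tilcara minus wild-type difference of the 48 genes was 0.06, beside 0.02 over all genes used, and 46 of the 48 differed by less than 0.5, as did 89.8% of all genes used. With stimulation the median was 0.04, beside 0.01, and 47 differed by less than 0.5, as did 87.8% of all genes used. At the 2-fold level, no member was higher in non-stimulated Tilcara cells and 1, the dim Psma5, was lower, against 0.425% and 0.658% of all genes used. None was 2-fold apart in either direction after stimulation, against 0.955% higher and 0.747% lower.

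Psmb10 differed most between the stimulated arrays. It was 0.78 higher in stimulated Tilcara than in stimulated wild-type cells, a 1.72-fold difference, and both non-stimulated arrays read 8.87. Psmb8 and Psmb9 were also higher in stimulated Tilcara cells, by 0.34 and 0.18, while their non-stimulated differences were 0.03 and −0.11. These 3 values come from the same array pair and were not tested. In that pair, 30 of the 48 proteasome genes used were higher in Tilcara and the others lower. Over all genes used, 51.8% were higher. Psmb11, Psmd13 and Psmc3ip had larger differences than Psmb8, at 0.38, 0.38 and 0.35. A higher signal in stimulated Tilcara cells was therefore not particular to the inducible catalytic genes. Psmd9 was lower in Tilcara in both states, with differences of −0.26 with and −0.70 without stimulation. The responses of the 2 genotypes differed at least 2-fold for 1 gene, Psma5, which was 1.02 larger in Tilcara, and for none in the other direction, against 2.32% and 1.65% of all genes used. Psmd7 and Psmd11 had responses of 1.32 and 1.40 in Tilcara and of 2.02 and 2.01 in wild type.

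**Figure D5:**
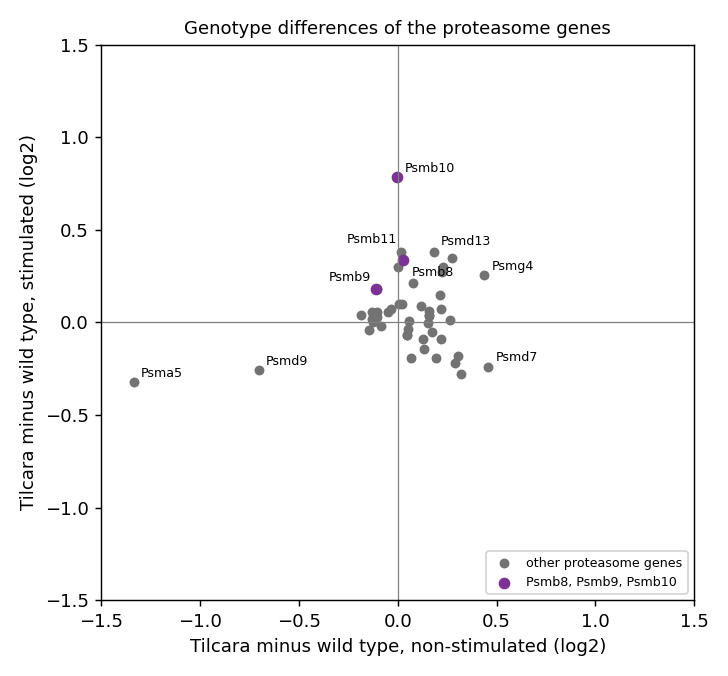
Tilcara minus wild-type signal of the 48 genes used, without stimulation (x axis, log2) and with it (y axis, log2), 1 point per gene, with the inducible catalytic genes in purple. Most points lie within 0.5 of 0 on both axes; Psmb10 stands at 0.78 on the y axis, and Psma5 at −1.34 on the x axis.

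Among partners of the proteasome and factors that control its genes, 16 genes were measured. Of these, 9 rose and 1 fell, where 22.0% and 22.8% of all genes used did, and 6 were not called. Their median responses were 0.68 in Tilcara and 0.91 in wild type. Nfe2l1 encodes NRF1, a membrane-bound transcription factor known to drive proteasome genes. It had 7.87 and 6.83 in stimulated and non-stimulated Tilcara cells and 7.96 and 6.64 in the wild-type pair, and rose by 1.18 (limma, SE 0.16, adjusted p = 0.00626). Mafg, a small MAF partner of NRF factors, rose by 2.04. Ngly1, the glycanase that acts on NRF1 after its release from the endoplasmic reticulum, fell, with 5.71 and 7.11 in Tilcara and 5.55 and 7.38 in wild type (limma log2 change −1.62). Nfe2l2, for the related factor NRF2, had 8.38 and 8.22 in Tilcara and 8.36 and 8.38 in wild type and was not called (adjusted p = 0.735). The deubiquitinases of the cap, Uchl5 and Usp14, rose by 1.44 and 1.31, the cap-associated thioredoxin Txnl1 by 1.49, and the core maturation factor Pomp by 0.86.

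For ubiquitin activation and shuttling, 13 genes were measured. Of these, 8 rose and none fell, where 22.0% and 22.8% of all genes used did. Their median responses were 0.75 in Tilcara and 0.83 in wild type. The shuttle gene Ubqln4 had 7.41 and 5.67 in stimulated and non-stimulated Tilcara cells and 7.56 and 5.50 in the wild-type pair, and rose by 1.90. The shuttle gene Rad23b rose by 1.27, the ubiquitin-conjugating enzyme gene Ube2n by 0.98, and Nploc4 and Vcp, which encode a cofactor and the segregase that extracts ubiquitinated proteins, by 0.86 and 0.84.

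MHC class I presentation is the pathway that uses peptides of the immunoproteasome. Of its 12 measured genes, 4 rose and 2 fell, where 22.0% and 22.8% of all genes used did, and 6 were not called. Irf1, an interferon-induced activator of the inducible subunits, had 8.59 and 6.65 in stimulated and non-stimulated Tilcara cells and 8.79 and 6.75 in the wild-type pair, and rose by 1.99 (limma, SE 0.15, adjusted p = 0.00171), while Psmb8 and Psmb10 fell. Nlrc5, the class I transactivator, rose by 1.32, the peptide-trimming enzyme Erap1 by 1.62 and the chaperone Canx by 0.85. The peptide transporter gene Tap2 and its partner Tapbp fell by 0.87 and 0.95. Tap1 had 8.57 and 8.25 in the Tilcara pair and 8.62 and 8.48 in the wild-type pair and was not called (adjusted p = 0.281), and B2m lay between 12.11 and 12.23 in all arrays.

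Psmb9, Tap1, Psmb8 and Tap2 are neighbours on chromosome 17, in that order (GRCm38.p6, RefSeq). Psmb9 and Tap1 point away from each other with 225 bases between them, so the sequence shown for Psmb9 reaches into the start of Tap1. Across this block the responses were −0.40, 0.32, −2.17 and −1.04 in Tilcara and −0.70, 0.14, −2.48 and −0.70 in wild type, in the same gene order. Of these 4 neighbours, Psmb8 and Tap2 fell, and Psmb9 and Tap1 were not called.

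Promoters of 41 of the 49 genes, 45 in all, were in the RefSeq table and were searched on both strands over 250 bases for 5 motifs. The antioxidant response element core TGACNNNGC, which NRF factors bind, was in 5 of 31 promoters of genes that rose (16.1%), against 10.2% of all 32851 promoters. The 5 genes were Psmb5, Psmb6, Psmc6, Psmd9 and Psmd12, and the match in Psmb5 is the capital stretch shown above. The kappa B consensus, the site of NF-kB, was in 5 of the 31 (16.1%), Psmd11 among them, against 7.25% of all promoters. The CCAAT box was in 32.3% of the 31 and in 33.8% of all.

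Among the 3 inducible catalytic genes, the interferon-stimulated response element core and the kappa B consensus had no match in this window, against 2.98% and 7.25% of all promoters. The interferon-gamma activated site motif TTCNNNGAA (GAS) had a match in Psmb8, against 7.02% of all promoters, and the CCAAT box one in Psmb9. Psmb10 held none of the 5 motifs. These matches are descriptions of letters in the window; no motif overlapped another in the runs shown.

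The identity of the cells was checked on marker lists. All 9 measured B cell markers lay above the floor in every array, but their summed linear signal was 2630 and 13600 in stimulated and non-stimulated Tilcara cells and 2250 and 13600 in the wild-type pair, and all 9 fell. NK cell markers had sums of 118 and 316 in the Tilcara pair and 127 and 287 in the wild-type pair. At or above the floor were 2, 7, 2 and 7 of 8. The 7 used fell, where 22.8% of all genes used did. However, Klrd1, Klrk1, Klre1 and Ncr1 reached the floor only in non-stimulated arrays, so they had to be lower after stimulation to be used. T cell markers had sums of 107 and 129 in the Tilcara pair and 143 and 224 in the wild-type pair, with 2, 2, 3 and 7 of 10 at the floor or above. Neutrophil markers stood out in non-stimulated wild-type cells, with a sum of 809 against 65.6 to 91.3 in the other arrays, most of it from S100a8 and S100a9, while Ly6g, Camp, Ngp and Ltf stayed below the floor everywhere. Macrophage markers had a sum of 201 there and of 111 to 118 elsewhere. The list for plasmacytoid dendritic cells had sums of 465 and 2480 in Tilcara and 332 and 2200 in wild type, mostly from Ly6d, which B cells also express. Siglech, a defining marker, was 3.42 and 5.06 in Tilcara and 3.06 and 4.93 in wild type, and fell. Siglech too reached the floor only in non-stimulated arrays. Klk1 was 2.094 and 6.406 in stimulated and non-stimulated Tilcara cells and 2.175 and 2.754 in the wild-type pair. Ccr9 was 4.355 and 4.032 in Tilcara and 4.338 and 4.044 in wild type, higher in the stimulated array of both genotypes. Neither Klk1 nor Ccr9 was called. In the Tilcara pair alone, Psmb8 and Psmb10 were lower by 2.17 and 2.94 after stimulation. In that pair 14 proteasome genes were 2-fold higher, the dim Psma5 included, against 11.9% of all genes used. Every marker sum, Siglech and Klk1 were also lower after stimulation in that pair, while Ccr9 was higher. The neutrophil marker sums there were 65.6 with and 91.3 without stimulation. The part of other cells in the results was not tested.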

How the data were processed

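Expression was measured in 4 samples of sorted B cells on Affymetrix arrays, 1 array per group. The authors deposited log2 signals of 41345 probe sets. The submitters' processing notes name RMA, without a version, as the method; its settings and the genome build were not stated. RMA makes the arrays' distributions alike, and array medians lay between 3.73 and 3.79. GEO's platform annotation gave 1 symbol to 23521 probe sets, several to 1814 and none to 16010. All 49 members had the same symbol in the RefSeq gene table.

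From these values, differences between arrays were computed with pandas 2.3.3, and limma 3.58.1 (R 4.3.3) fitted stimulation and genotype together; the fit was tested on simulated data. The number of arrays limits the precision. The members, lists, tests and alternatives were chosen with earlier results of these data known. Values per array were given for the catalytic genes, caps, inhibitor, core chaperones, dim members, members 2-fold apart between genotypes, and the 2 largest and 2 smallest mean responses in each other group; from the other lists, up to 5 genes by response and a few set genes, of which 1 is not reported here. Canx and Sem1 were named outside this rule, after their values were seen, Canx to complete a count and Sem1 as a cap gene. Erythroid markers are not analysed here either. Alternatives changed the normalization, probe set choice, filter, variance model, genotype term and fold threshold.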

Additional observations from a re-analysis of the deposited data

Results flagged for a closer look

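Psmd5, a chaperone of the 19S base, differed in direction between genotypes: its response to stimulation was −0.17 in Tilcara and 0.32 in wild type, a difference of −0.48 on the log2 scale. Nfe2l2, for NRF2, had responses of 0.16 in Tilcara and −0.02 in wild type, a difference of 0.18. Each response is a difference between 2 single arrays, and neither difference was tested.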

How the results depend on the processing

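No analysis paired by replicate number was possible, because the labels give none; the fit compares the states within each genotype, and without the genotype term 37 genes rose. Over the alternatives the number of proteasome genes that rose lay between 26 (cyclic loess) and 38 (an intensity trend in limma), against 34, and it was 29 without a filter on dim genes. Cyclic loess gave 4 genes that fell, adding Psmb9 and Psme4 to Psmb8 and Psmb10, and a median wild-type response of 0.58; it turned the sign of 4 small effects that were not called, to −0.17 for Psmb1, −0.032 for Psmd10, −0.020 for Psmd5 and −0.076 for Psme1. Psmb8 and Psmb10 passed under each of the 7 alternatives, with log2 changes of −2.49 to −2.33 and −3.51 to −3.33. At 1.5-fold, 32 genes were higher after stimulation in Tilcara and 29 in wild type. Tilcara was lower than wild type in 2 genes without stimulation and higher in 1 with it. The responses differed in 2 genes in each direction. Shares over all genes used were not counted at 1.5-fold or under the other alternatives, so these counts have no background beside them. The single gene 2-fold lower in non-stimulated Tilcara, Psma5, was 0 genes with the mean over probe sets or a floor on the mean, and the single gene with a 2-fold larger Tilcara response was 0 under these and under median centring. No genotype call appeared in any limma alternative with a genotype term. Of 333 single-gene effects under alternatives, 13 lost and 17 gained a call. Leaving out the genes matched by name alone, chosen after seeing the data, gave 32 that rose. Counts near the threshold are limited by 1 array per group.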
